A study of Mus musculus with 18 samples.

Results

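The genes described are 9 enzymes of glycolysis and lactate formation (Hk1, Hk2, Pfkl, Aldoa, Gapdh, Pgk1, Eno1, Pkm and Ldha) and the glucose transporter Slc2a1. These 10 genes were picked by symbol from the 55536 genes of a count table of mouse striatal microglia, and all 10 were present and were counted well above the minimum of 1 CPM (counts scaled to library size) in all 18 samples. Microglia were pulled from dissociated striatum with anti-CD11b beads, and CD11b is also on other myeloid cells. Adult mice of 4 genotypes on the C57BL/6 background were sequenced, giving 5 WT samples, 3 Tyrobp-KO samples, 5 Q175 samples and 5 Q175;Tyrobp-KO samples. Q175 mice are heterozygous for a knock-in of human HTT exon 1 with an expanded CAG repeat in the mouse Htt gene, so every cell type of the striatum carries it. Tyrobp-KO mice lack the signalling adaptor TYROBP (DAP12) in all cells. Females were 1 of 5 WT samples, 2 of 3 Tyrobp-KO samples, 4 of 5 Q175 samples and 2 of 5 Q175;Tyrobp-KO samples, so sex and genotype are not balanced, and nothing in the labels pairs samples across groups. Where p-values are given, the tests take these samples as the replicates.

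Glycolysis splits glucose into pyruvate in the cytosol and yields ATP without oxygen. Glucose enters through facilitative transporters, is trapped by phosphorylation by a hexokinase, is committed to the pathway by phosphofructokinase, is cleaved by aldolase, and is then oxidised and dephosphorylated in the steps of GAPDH, phosphoglycerate kinase, enolase and pyruvate kinase. Lactate dehydrogenase regenerates the NAD+ that the GAPDH step consumes. Microglia use both glycolysis and mitochondrial respiration, and a shift of myeloid cells towards glycolysis on inflammatory activation is well known. Transcription of many of these genes is raised by the hypoxia-inducible factor HIF-1, and several of the enzymes exist as isozymes that differ between cell types, with Aldoc best known from astrocytes.

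Libraries held between 11260410 and 29771983 counts, and normalized counts below are counts scaled to a common library size with edgeR's TMM factors. Tyrobp itself had between 3629 and 8793 normalized counts in the WT samples and between 3950 and 6813 in the Q175 samples, against 324 to 395 in the Tyrobp-KO samples and 183 to 271 in the Q175;Tyrobp-KO samples, so each library matched its Tyrobp label. All 15 microglia markers were at 10 or more normalized counts in every sample, and their sum was between 249669 and 470068. RNA of other cell types was also present: all 15 astrocyte markers reached 10 normalized counts in every sample, and their sum was between 11848 and 21258 in WT, between 13079 and 75153 in Tyrobp-KO, between 21716 and 109234 in Q175 and between 12604 and 59742 in Q175;Tyrobp-KO. All 16 neuronal and all 12 oligodendrocyte markers were detected in the same sense. In such bulk samples fewer cells of a type and less RNA per cell cannot be told apart.

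In the members 3 libraries stood apart, and they came from different groups: WT replicate 8, Q175 replicate 9 and Q175;Tyrobp-KO replicate 11, all males. They had the lowest Gapdh, Pgk1 and Eno1 of all 18 libraries. Gapdh was between 1208 and 1541 normalized counts in these 3 libraries and between 2246 and 6629 in the other 15, Pgk1 between 205 and 284 against 481 to 1362, and Eno1 between 1426 and 1565 against 1669 to 3733. Pkm, Hk1, Hk2, Pfkl, Aldoa, Ldha and Slc2a1 overlapped between the 3 libraries and the rest. The contrast does not depend on the scaling between libraries, since it is also seen inside each library: the ratio of Gapdh to Pkm was between 0.392 and 0.427 in the 3 libraries and between 0.791 and 1.439 in the others, and the ratio of Pgk1 to Pkm was between 0.065 and 0.079 against 0.131 to 0.338. The same 3 libraries had the lowest sum of 80 ribosomal protein genes, between 67799 and 87539 normalized counts against 97030 to 287045. They also had the largest share of Gapdh reads on near-identical Gapdh copies, between 23.2% and 25.6% of the reads on Gapdh and its copies together against 4.54% to 14.6%. This share rises by arithmetic when Gapdh itself is low. The copies held 463, 576 and 498 raw counts in WT replicate 8, Q175 replicate 9 and Q175;Tyrobp-KO replicate 11, and between 197 and 574 in the other 15 libraries. In the 3 libraries the sum of red blood cell markers was between 4 and 15 normalized counts against 24 to 496. The part of these features in the low Gapdh, Pgk1 and Eno1 was not tested. The libraries were picked after their values were seen. Some values without them are also given below. These are the median of the members in Q175 against WT and Gapdh in Tyrobp-KO against WT. For Q175;Tyrobp-KO against Q175 and the interaction they are those of Pgk1.

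**Figure D1:**
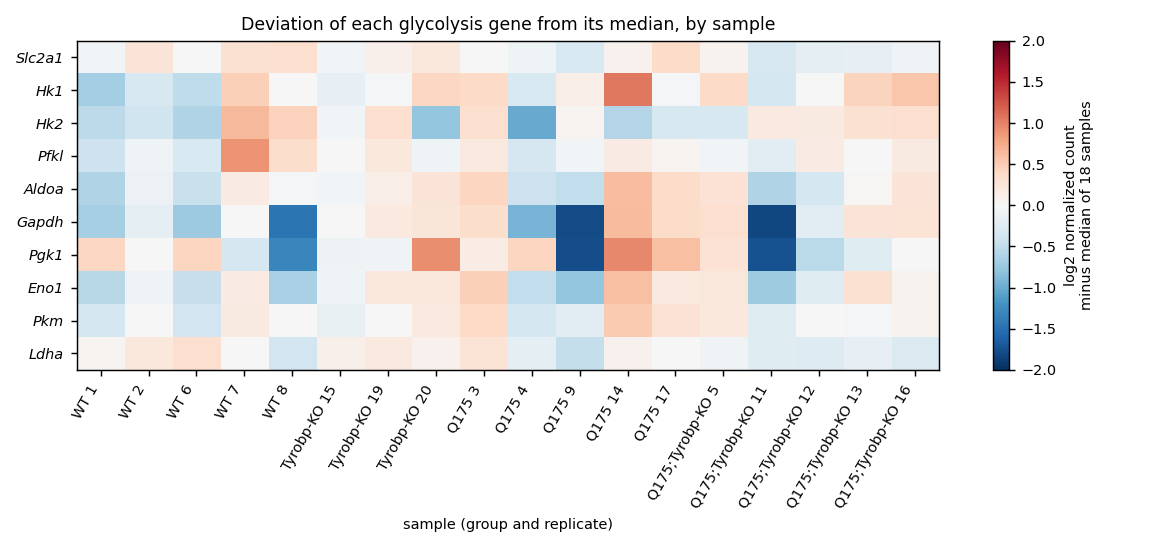
Heat map of the 10 genes (rows) in the 18 samples (columns, group and replicate). The colour is the log2 normalized count minus the gene's median over 18 samples. WT 8, Q175 9 and Q175;Tyrobp-KO 11 carry the darkest blue in Gapdh and Pgk1, while Q175 14 is red in Hk1, Aldoa, Gapdh, Pgk1, Eno1 and Pkm.

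Levels of different genes were compared as reads per kb of exon scaled to library size (RPKM), with the exonic length taken over all transcripts of a gene in GENCODE M21. By the median over 18 samples the order was Aldoa (56.6), Gapdh (55.7), Pkm (39.4), Hk2 (29.9), Eno1 (24.6), Ldha (20.01), Pgk1 (16.9), Slc2a1 (12.1), Pfkl (8.16) and Hk1 (3.55). Most neighbours in this order changed places between samples. Aldoa was above Gapdh in 13 of 18 samples, Hk2 was above Eno1 in 12 of 18, and Ldha was above Pgk1 in 11 of 18. At the bottom the order was firmer, with Slc2a1 above Pfkl in 17 of 18 samples and Pfkl above Hk1 in 18 of 18. The order depends on the exonic lengths used. Without division by length the median normalized counts were 4256 for Gapdh, 3643 for Pkm, 3304 for Hk2 and 3049 for Aldoa. They were 1008 for Pfkl and 786 for Slc2a1. The members also differed in how much they varied. Slc2a1 spanned 1.62-fold from its lowest to its highest sample, Ldha 1.75-fold and Pkm 1.86-fold, whereas Gapdh spanned 5.49-fold and Pgk1 6.63-fold. The SD within groups, on the log2 scale, was 0.19 for Slc2a1 and 0.22 for Ldha but 0.80 for Gapdh and 0.84 for Pgk1.

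Entry of glucose was represented by Slc2a1, which encodes GLUT1 (chr4:119108711-119137983, + strand, GRCm38). Slc2a1 had 755, 937, 781, 966 and 986 normalized counts in WT replicates 1, 2, 6, 7 and 8, and 757, 839 and 912 in Tyrobp-KO replicates 15, 19 and 20. It had 790, 742, 638, 833 and 1017 in Q175 replicates 3, 4, 9, 14 and 17, and 826, 626, 683, 704 and 746 in Q175;Tyrobp-KO replicates 5, 11, 12, 13 and 16. The groups overlapped throughout. Values of the other members are given in this order of groups and replicates. Slc2a1 was not the main hexose transporter transcript of these cells: Slc2a5, which encodes the fructose transporter GLUT5 and is a known microglial gene, made up 81.5% ± 5.24 (SD, n = 18) of the reads per kb over Slc2a1, Slc2a3 and Slc2a5, and Slc2a1 15.99% ± 4.37.

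Among the hexokinases, which catalyse the first step of the pathway, Hk2 had the most reads per kb. It encodes a hexokinase that binds mitochondria and is inducible in many cells. Hk2 (chr6:82725025-82774454, - strand) had 2291, 2513, 2182, 5181 and 4554 normalized counts in WT and 3166, 4183 and 1928 in Tyrobp-KO. It had 4105, 1641, 3442, 2196 and 2642 in Q175 and 2650, 3765, 3737, 4097 and 4156 in Q175;Tyrobp-KO. Of the 5 Q175;Tyrobp-KO samples 4 lay close together, above 3 of the 5 WT samples and 4 of the 5 Q175 samples, and the ranges overlapped. Hk1 (chr10:62268855-62379908, - strand), the hexokinase known as the main one of brain, had 350, 448, 395, 780 and 560 normalized counts in WT and 499, 546 and 743 in Tyrobp-KO. It had 730, 454, 613, 1159 and 550 in Q175 and 730, 441, 559, 758 and 822 in Q175;Tyrobp-KO, with the highest value in Q175 replicate 14. Per kb, Hk2 made up 56.3% ± 4.86 of the 3 hexokinases, Hk3, a hexokinase of myeloid cells, 35.7% ± 3.45 and Hk1 7.95% ± 3.0 (SD, n = 18).

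Pfkl, the liver-type phosphofructokinase (chr10:77986947-78010083, - strand), had 752, 950, 813, 1883 and 1281 normalized counts in WT and 1002, 1172 and 947 in Tyrobp-KO. It had 1150, 802, 971, 1133 and 1046 in Q175 and 972, 859, 1126, 1013 and 1147 in Q175;Tyrobp-KO. WT replicate 7 was the highest of all samples in both Pfkl and Hk2. Aldoa, the aldolase of muscle and most other tissues (chr7:126795234-126800751, - strand), had 2014, 2820, 2242, 3421 and 2995 normalized counts in WT and 2927, 3357 and 3629 in Tyrobp-KO. It had 4123, 2284, 2174, 4677 and 3918 in Q175 and 3712, 2015, 2397, 3104 and 3627 in Q175;Tyrobp-KO. In Q175, 3 samples were above every WT sample and the other 2 were among the WT values. Aldoa overlaps Fam57b and Gapdh overlaps Iffo1 on the opposite strand, Slc2a1, Hk1 and Hk2 overlap antisense genes, and the libraries were not directional, so reads in these overlaps are uncertain. Another gene with the symbol Aldoa in GENCODE held at most 45 counts in a sample and was left out.

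Gapdh, which oxidises glyceraldehyde phosphate and is often used as a reference transcript (chr6:125161715-125166467, - strand), was the most variable of the abundant members. It had 2681, 3729, 2585, 4254 and 1541 normalized counts in WT and 4259, 4898 and 5032 in Tyrobp-KO. It had 5438, 2246, 1234, 6629 and 5461 in Q175 and 5368, 1208, 3630, 5078 and 5119 in Q175;Tyrobp-KO. The 3 Tyrobp-KO samples were all above the 5 WT samples, with the nearest pair almost equal, while Q175 and Q175;Tyrobp-KO spanned both. Gapdh has 92 near-identical genes in the annotation, 89 of them pseudogenes, which together took a median of 8.52% of the reads, so its count depends on how the authors treated reads with several matches. Pgk1, which makes the first ATP of the pathway and lies on the X chromosome (chrX:106187100-106203699, + strand), had 929, 707, 945, 557 and 284 normalized counts in WT and 651, 664 and 1331 in Tyrobp-KO. It had 773, 946, 205, 1362 and 1065 in Q175 and 857, 209, 481, 593 and 695 in Q175;Tyrobp-KO. The highest values, in Q175 replicate 14 and Tyrobp-KO replicate 20, were above all others, and 4 of the 5 Q175 samples were above 4 of the 5 Q175;Tyrobp-KO samples.

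Eno1, the enolase of most tissues (chr4:150236721-150248879, + strand), had 1669, 2334, 1775, 2747 and 1565 normalized counts in WT and 2319, 2873 and 2859 in Tyrobp-KO. It had 3406, 1748, 1426, 3733 and 2814 in Q175 and 2857, 1493, 2075, 3012 and 2572 in Q175;Tyrobp-KO. As for Aldoa, the same 3 Q175 samples, replicates 3, 14 and 17, were above every WT sample. Pkm, which encodes the muscle and widely expressed forms of pyruvate kinase (chr9:59656368-59679375, + strand), had 2867, 3648, 2794, 4145 and 3605 normalized counts in WT and 3279, 3637 and 4166 in Tyrobp-KO. It had 4782, 2841, 3143, 5209 and 4471 in Q175 and 4212, 3085, 3674, 3528 and 3827 in Q175;Tyrobp-KO. Gene counts do not tell the splice forms of Pkm apart. Ldha, the lactate dehydrogenase subunit that favours lactate (chr7:46841475-46855627, + strand), had 1280, 1415, 1543, 1223 and 938 normalized counts in WT and 1314, 1401 and 1308 in Tyrobp-KO. It had 1475, 1078, 882, 1306 and 1228 in Q175 and 1170, 1041, 1025, 1095 and 1005 in Q175;Tyrobp-KO. The Q175;Tyrobp-KO samples lay between the extremes of the Q175 samples, in a narrow range below 3 of the 5 of them. Ldha lies on the chromosome of Tyrobp at a distance of 16.4 Mb, and Aldoa at 96.4 Mb.

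In the comparison of Q175 with WT, which asks what the mutant huntingtin knock-in does to these transcripts, none of the 10 members passed the test (edgeR's quasi-likelihood test, Benjamini-Hochberg FDR of 0.1 over 18266 genes), and the percentage called over all genes was 0. None reached an unadjusted p under 0.05 either, against 6.24% of all genes, and DESeq2 also called none and put none under that p. Of the 10 members 6 (Hk1, Aldoa, Gapdh, Pgk1, Eno1 and Pkm) had a higher fitted level in Q175, with log2 fold changes between 0.29 and 0.54, and Slc2a1, Hk2, Pfkl and Ldha had values between -0.23 and -0.07. The median of the members was 0.34, against -0.02 over all genes, of which 46.7% were higher. The largest difference was in Gapdh (2958 ± 1060 against 4202 ± 2326, mean ± SD, n = 5 each), with a log2 fold change of 0.54 ± 0.42 (SE) and an adjusted p of 0.997 by edgeR. Hk1 had 0.50 ± 0.28 with an adjusted p of 0.925, and was higher in 19 of 25 pairs of a Q175 and a WT sample. In no member were the groups separate, while 1.09% of all genes had groups that did not overlap. With sex as a term the median of the members was -0.25 instead of 0.34, and Gapdh, Pgk1, Eno1 and Aldoa were below 0. The only male of the Q175 samples is replicate 9, a library low in Gapdh, Pgk1 and Eno1, and the only female of the WT samples is replicate 7, so the sex term has 1 sample of the rarer sex in each group. With a term for the score of non-microglial markers the median was 0.02, and the median astrocyte sum was 31797 in Q175 and 14074 in WT. Without WT replicate 8 and Q175 replicate 9 the median was 0.41, and again no member was called.

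Deletion of Tyrobp in Q175 mice was examined by comparing Q175;Tyrobp-KO with Q175. No member was called (edgeR, FDR of 0.1 over 18059 genes, 0.0111% of all genes called), and none had an unadjusted p under 0.05, against 8.01% of all genes, and DESeq2 also gave none by either measure. Of the 10 members 8 had log2 fold changes below 0, from -0.62 for Pgk1 to -0.04 for Gapdh, with a median of -0.14 beside -0.05 over all genes, of which 44.9% were higher. Hk2 (log2 fold change 0.39 ± 0.23, SE, edgeR adjusted p = 0.533) and Pfkl (0.003 ± 0.13) were the others. Pgk1 had 870 ± 429 normalized counts in Q175 and 567 ± 243 in Q175;Tyrobp-KO (mean ± SD, n = 5 each), a log2 difference of -0.62 ± 0.44 (SE) with an adjusted p of 0.559 by edgeR. Hk2 was higher in 20 of 25 pairs of a Q175;Tyrobp-KO and a Q175 sample, and Pgk1 in 6 of 25. No member had groups that did not overlap, against 0.864% of all genes. Without the low library of each group (Q175 replicate 9 and Q175;Tyrobp-KO replicate 11) Pgk1 had an unadjusted edgeR p of 0.0134 and was not called. Each of these libraries held the lowest Pgk1 of its group. Leaving them out narrows the spread of Pgk1 by construction, so this p depends on how they were picked. With a term for sex or for the score of non-microglial markers, the median of the members was 0.04 or 0.07.

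Tyrobp deletion alone was examined by comparing Tyrobp-KO with WT. No member was called (edgeR, FDR of 0.1 over 18017 genes, 0.0222% of all genes called), and 1 of 10, Gapdh, had an unadjusted p under 0.05, against 6.82% of all genes. Gapdh had 4730 ± 413 normalized counts in the 3 Tyrobp-KO and 2958 ± 1060 in the 5 WT samples (mean ± SD), a log2 fold change of 0.74 ± 0.29 (SE) with an adjusted p of 0.645 by edgeR. It was higher in 15 of 15 pairs and was the only member whose groups did not overlap, beside 4.48% of all genes. Without WT replicate 8 its log2 fold change was 0.59. Of 17 alternative fits, which include each sample left out and are not independent, 12 put Gapdh under an unadjusted p of 0.05. With sex as a term, or in 1 fit over all 4 groups, no member was under it. The WT sample nearest to the Tyrobp-KO samples in Gapdh, replicate 7, was the only female of WT. Eno1 came next (0.48 ± 0.23, adjusted p = 0.761, edgeR), higher in 13 of 15 pairs, and DESeq2 put 2 members under an unadjusted p of 0.05 and called none. Of the 10 members 7 were above 0, with a median of 0.24, against 0.02 over all genes, of which 52.2% were higher. Tyrobp-KO replicate 20 had 75153 normalized counts of astrocyte markers and 287045 of ribosomal protein genes, and the highest Slc2a1, Hk1, Aldoa, Gapdh, Pgk1 and Pkm of its group.

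Whether the Q175 difference depended on Tyrobp was tested as the interaction over all 18 samples. No member was called or had an unadjusted p under 0.05 (edgeR, 18613 genes, 0% called and 6.01% under that p), nor by DESeq2. Of the 10 interaction coefficients 8 were below 0, with a median of -0.30 against 0.04 over all genes, and the largest was that of Pgk1 (-0.98 ± 0.65, SE, edgeR adjusted p = 0.716). Without the 3 low libraries Pgk1 had an unadjusted edgeR p of 0.0295 and was not called. These libraries held the lowest Pgk1 of all 18 samples, so this p also depends on how they were picked. The comparison of Q175 with WT and that of Tyrobp-KO with WT share the WT samples, and both comparisons of Q175 share the Q175 samples, so their values are not independent. For the members whose fitted level was higher in Q175, the pairs of values (Q175 against WT, then Tyrobp-KO against WT) were 0.54 and 0.74 for Gapdh, 0.50 and 0.30 for Hk1, 0.41 and 0.48 for Eno1, 0.38 and 0.43 for Pgk1, 0.38 and 0.36 for Aldoa and 0.29 and 0.18 for Pkm. Scaling by total counts shifted the median of all genes by 0.13 in Q175;Tyrobp-KO against Q175 and by 0.11 in the interaction, and Gapdh, Hk1 and Eno1 were then above 0 in the former.

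**Figure D2:**
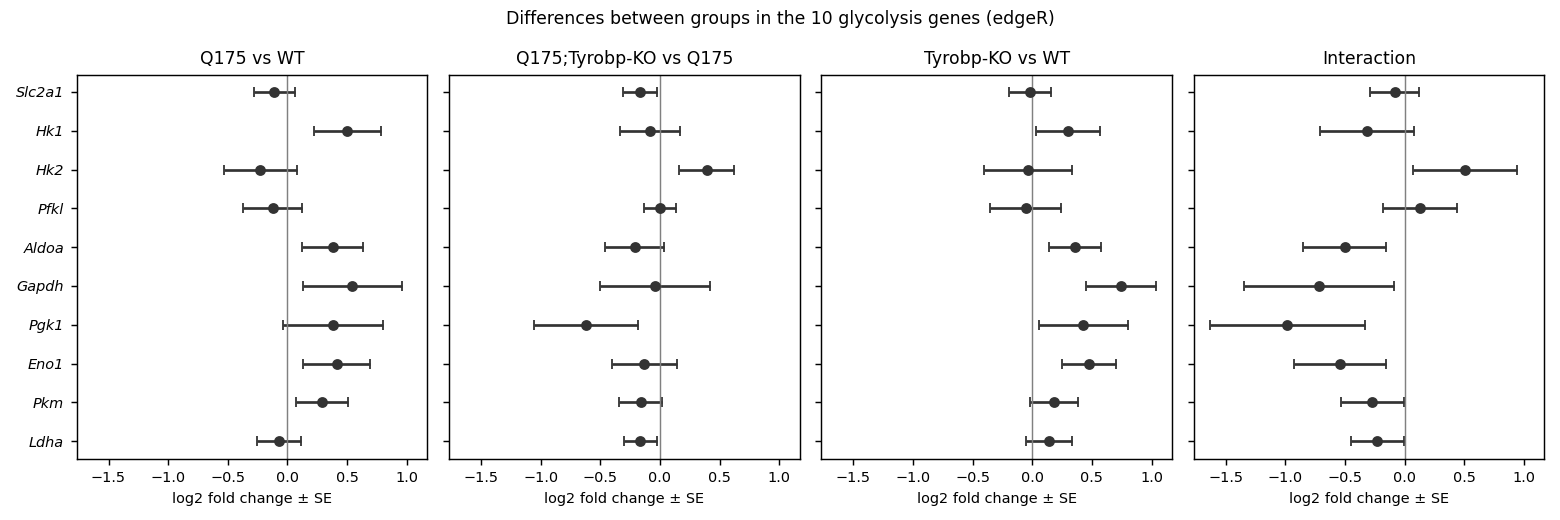
Log2 fold change (x axis, point) and SE (bar) of each of the 10 genes (y axis) in the 3 comparisons and the interaction, from edgeR. Most bars include or come near 0, and no gene passed an FDR of 0.1. In the Q175 against WT, Q175;Tyrobp-KO against Q175 and interaction panels the widest bars are those of Gapdh and Pgk1.

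The members did not vary as 1 block over the samples. Of their 45 pairs, 21 had a Pearson correlation of log2 CPM above 0.5 over the 18 samples and 7 had one below 0, with a median of 0.45. Aldoa, Gapdh, Eno1 and Pkm varied together, with r = 0.945 (Spearman's rho = 0.905) for Gapdh and Eno1 and r = 0.923 (rho = 0.913) for Aldoa and Pkm. The former was 0.95 and the latter 0.928 without the 3 low libraries (n = 15). Hk1, of the first step, varied with them too, at r = 0.799 with Aldoa, 0.806 with Pkm, 0.717 with Eno1 and 0.566 with Gapdh. Pgk1 and Ldha also act after the aldolase step. Over all 18 samples the correlations with these 4 genes were between 0.365 and 0.757 for Pgk1 and between 0.207 and 0.537 for Ldha. Without the 3 low libraries they were between -0.01 and 0.264. Hk2 and Pfkl formed another pair (r = 0.704, rho = 0.785). Hk2 and Pgk1 ran in opposite directions (r = -0.623, rho = -0.725, and r = -0.779 without the 3 libraries). The correlation of Gapdh with Pgk1, 0.757 (rho = 0.552), was 0.099 without these libraries. They held the lowest Gapdh, Pgk1 and Eno1, so leaving them out narrows the range of these genes by construction. These correlations describe samples that share their depth, their groups and their mixture of cell types.

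Several members followed the summed level of ribosomal protein genes or of astrocyte markers across the samples. Pgk1 did so most closely with the ribosomal protein genes (r = 0.927, rho = 0.872, n = 18, on log2 values, r = 0.885 without the 3 low libraries and 0.879 without the 2 samples farthest from the median). Hk2 had the opposite relation (r = -0.705, rho = -0.746, r = -0.762 without the 3 low libraries and -0.74 without the 2 farthest samples). Hk2 also went with the microglia markers (r = 0.665, rho = 0.61, 0.691 and 0.462 in the same order) and against the neuronal markers (r = -0.582, rho = -0.552). Ldha (r = 0.701, rho = 0.67) and Gapdh (r = 0.653, rho = 0.455) rose with the ribosomal protein genes as well, but at 0.401 and 0.073 without the 3 low libraries. Hk1 went with the astrocyte markers (r = 0.864, rho = 0.771, r = 0.857 without the 3 low libraries and 0.808 without the 2 farthest samples), and so did Aldoa (r = 0.72, rho = 0.686, 0.768 and 0.623 in the same order). Pkm (r = 0.665, rho = 0.569, 0.675 and 0.517) and Eno1 (r = 0.657, rho = 0.631, 0.764 and 0.545) did so too. Gapdh went with astrocyte markers at r = 0.524 (rho = 0.633), and at 0.722 without the 3 low libraries. For Ldha and Slc2a1 the correlation with astrocyte markers was -0.039 and 0.102. The score of non-microglial markers combines astrocyte, neuronal and oligodendrocyte markers, so it is not a measure of astrocyte RNA alone. With a term for this score, the log2 fold change of Hk1 in Q175 against WT was -0.18 and that of Aldoa -0.002. That of Pgk1, whose correlation with astrocyte markers was 0.371, was -0.68. The part of astrocyte RNA in each member was not tested further.

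**Figure D3:**
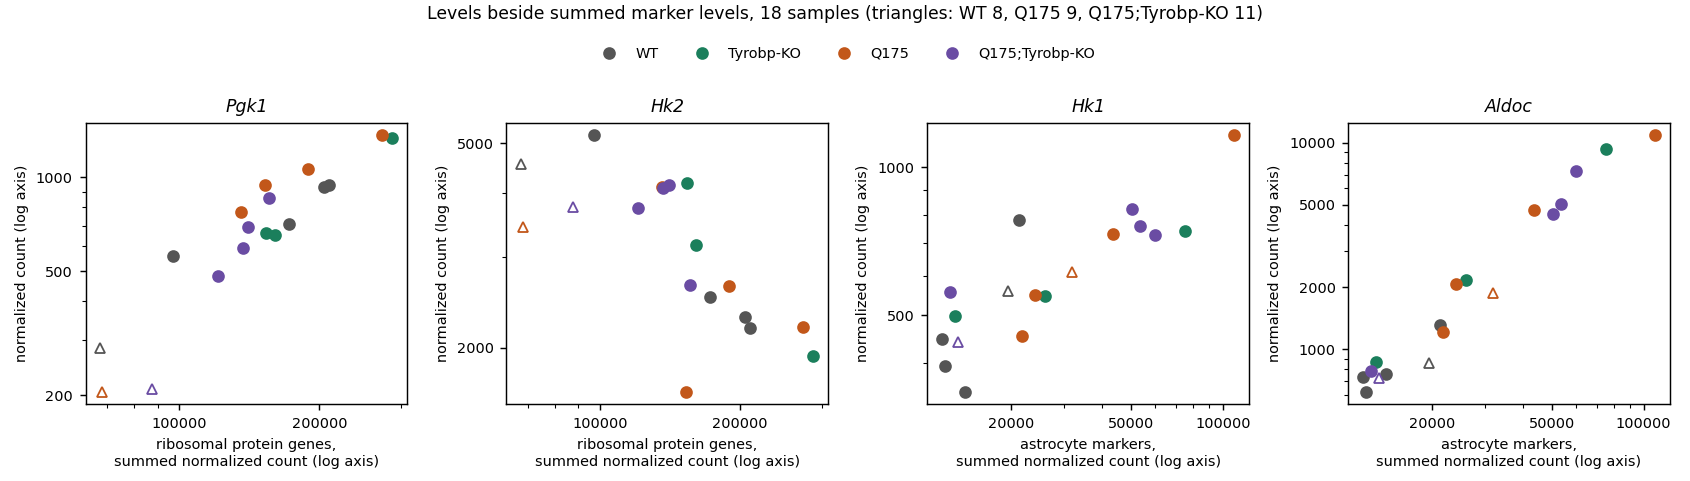
Normalized counts of Pgk1 and Hk2 against the summed level of ribosomal protein genes, and of Hk1 and Aldoc against that of astrocyte markers (all axes logarithmic, 1 point per sample, coloured by group, open triangles for WT 8, Q175 9 and Q175;Tyrobp-KO 11). Points run upwards for Pgk1 (r = 0.927), downwards for Hk2 (r = -0.705) and upwards for Hk1 (r = 0.864) and Aldoc (r = 0.982).

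Shares within isozyme families need no scaling between libraries. Of 18 exact permutation tests (6 shares in 3 comparisons, 2-sided), 2 had an unadjusted p under 0.05 and none passed Benjamini-Hochberg adjustment. The share of Aldoa among Aldoa and Aldoc reads per kb was 74.8%, 81.1%, 80.1%, 74.6% and 79.6% in the WT samples and 49.5%, 67.9%, 56.5%, 32.6% and 68.0% in the Q175 samples. All Q175 samples were below all WT samples (78.0% ± 3.10 against 54.9% ± 14.7, SD, n = 5 each, exact permutation p = 0.00794, the smallest that 5 against 5 allows, adjusted p = 0.143). The Aldoa level itself was not lower, and the difference came from Aldoc, with at most 1309 normalized counts in WT and 1211 to 10818 in Q175. Aldoc had a log2 fold change of 2.31 ± 0.53 (SE) and an adjusted p of 0.345 by edgeR in Q175 against WT, and 2.30 ± 0.57 (adjusted p = 0.565) in Tyrobp-KO against WT. It followed the astrocyte markers with r = 0.982 (rho = 0.957, n = 18). The share of Aldoa was 57.6% ± 24.8 in Tyrobp-KO (n = 3) and 55.5% ± 19.5 in Q175;Tyrobp-KO (n = 5), with samples on both sides.

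The other share was that of Slc2a1 among Slc2a1, Slc2a3 and Slc2a5, 18.7% ± 5.18 in Q175 and 12.4% ± 2.20 in Q175;Tyrobp-KO (SD, n = 5 each, exact permutation p = 0.0476, adjusted p = 0.429). Slc2a5 was between 2044 and 4768 normalized counts in Q175 and between 4041 and 5769 in Q175;Tyrobp-KO (log2 fold change 0.49 ± 0.21, SE, edgeR adjusted p = 0.533). The remaining shares had unadjusted p-values above that threshold. Eno1 made up 63.2% ± 10.3 of the 3 enolases per kb, Pfkl 38.2% ± 11.3 of the phosphofructokinases beside 50.6% ± 10.7 for Pfkm, and Ldha 14.99% ± 1.39 of the lactate dehydrogenases (SD, n = 18). The order of Pfkl and Pfkm depends on the exonic lengths used (6675 and 3340 bases). Without division by length Pfkl was 44.0% ± 11.2 and Pfkm 29.9% ± 8.23 of the counts. The low share of Ldha beside Ldhb, the subunit that favours pyruvate, was nearly constant, between 12.9% and 17.9% over all samples. It depends on the exonic lengths used (3310 bases for Ldha and 1570 for Ldhb) and was 27.1% ± 2.15 of the counts without division by length.

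**Figure D4:**
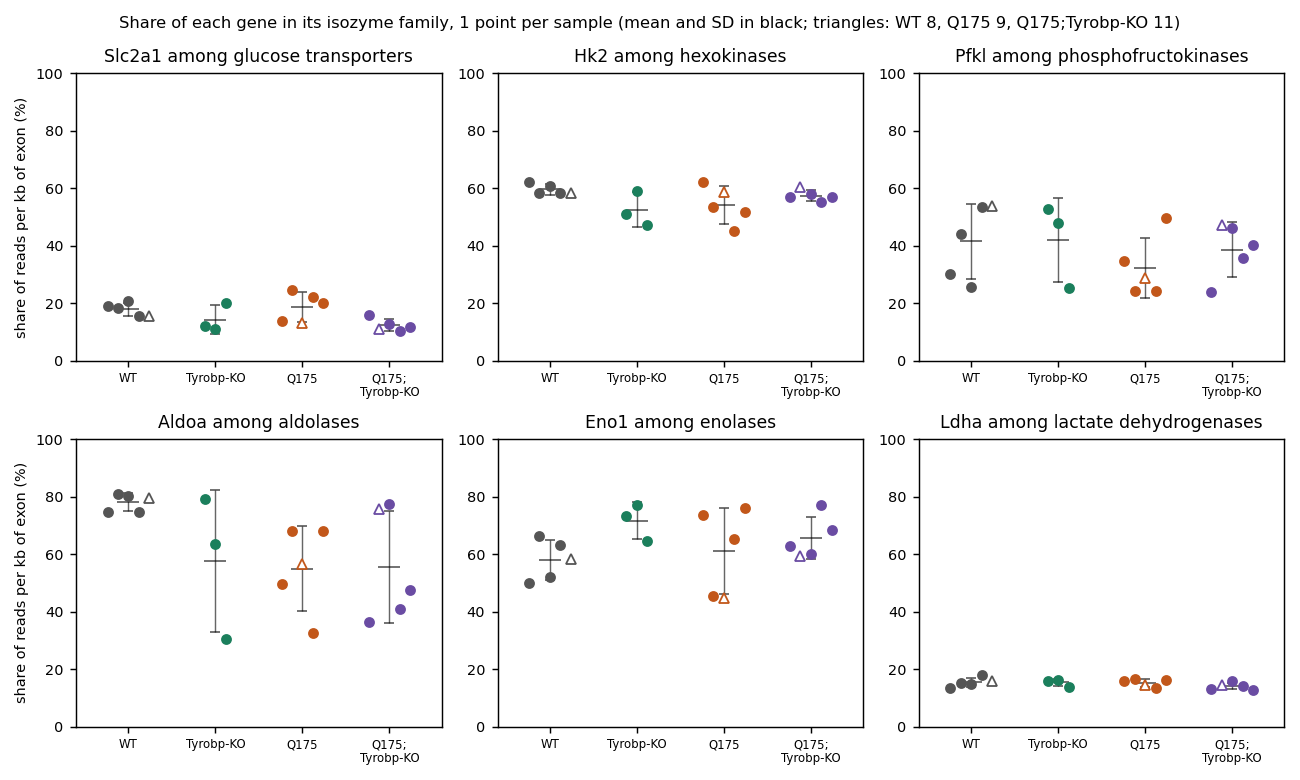
Share (y axis, percent of reads per kb of exon, from 0 to 100) of 6 members in their isozyme families in the 4 groups, 1 point per sample, with mean and SD in black and open triangles for WT 8, Q175 9 and Q175;Tyrobp-KO 11. The share of Aldoa is at 74.6% or above in all WT samples and at 68.0% or below in all Q175 samples. Ldha is between 12.9% and 17.9% and Hk2 above 45.0% in every group.

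The members were chosen for their place in the pathway, and the start regions of Gapdh, Pgk1 and Eno1, which were low together in 3 libraries, and of Ldha, the textbook target of HIF-1, are shown to give their sequence context. The windows are those of RefSeq (GRCm38.p6), read 5′ to 3′ on the gene's strand, and run from 250 bases before to 50 bases after the annotated start nearest to the GENCODE start. Capitals mark the core of the HIF-1 response element, ACGTG or GCGTG, read on either strand. Overlapping matches are counted one by one, so the palindrome that is also the E-box core counts on each strand.
Gapdh, chr6:125165724-125166023, - strand: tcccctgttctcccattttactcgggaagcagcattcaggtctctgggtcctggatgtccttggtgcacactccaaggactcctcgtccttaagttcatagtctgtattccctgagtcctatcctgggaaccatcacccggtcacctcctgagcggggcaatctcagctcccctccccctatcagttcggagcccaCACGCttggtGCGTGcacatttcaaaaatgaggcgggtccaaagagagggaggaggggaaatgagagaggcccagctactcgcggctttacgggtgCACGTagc
Pgk1, chrX:106186850-106187149, + strand: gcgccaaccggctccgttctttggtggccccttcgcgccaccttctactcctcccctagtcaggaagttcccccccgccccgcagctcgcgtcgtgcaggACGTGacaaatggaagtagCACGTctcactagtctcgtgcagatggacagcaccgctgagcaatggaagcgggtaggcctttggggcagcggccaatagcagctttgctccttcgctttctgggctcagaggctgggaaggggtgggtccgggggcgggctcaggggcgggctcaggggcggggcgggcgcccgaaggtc
Eno1, chr4:150236458-150236757, + strand: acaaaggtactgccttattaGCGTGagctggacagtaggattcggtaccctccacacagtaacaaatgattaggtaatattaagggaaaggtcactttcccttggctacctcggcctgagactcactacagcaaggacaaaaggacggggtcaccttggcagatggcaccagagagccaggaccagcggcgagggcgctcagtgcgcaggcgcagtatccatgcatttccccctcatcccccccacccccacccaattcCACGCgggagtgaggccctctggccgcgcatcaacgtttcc
Ldha, chr7:46845554-46845853, + strand: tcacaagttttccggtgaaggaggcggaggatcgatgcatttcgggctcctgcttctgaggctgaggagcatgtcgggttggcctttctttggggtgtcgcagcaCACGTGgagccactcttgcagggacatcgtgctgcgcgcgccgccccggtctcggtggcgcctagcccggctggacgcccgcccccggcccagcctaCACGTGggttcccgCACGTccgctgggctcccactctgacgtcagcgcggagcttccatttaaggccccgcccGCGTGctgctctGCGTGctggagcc
The Ldha window held 7 matches, the Gapdh window 3, and the windows of Pgk1, Eno1, Slc2a1 and Hk2 held 2 each. Pfkl had 1, and the windows of Hk1, Aldoa and Pkm had none. So 7 of the 10 members had a match, beside 43.8% of all 32851 windows in the table. A match of such short letters is a description of the window and not of binding.

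Other genes around glucose metabolism were read from the same fits, and none of the 86 genes in 5 lists was called in any comparison. Among 21 other glycolysis enzymes and isozymes, 13 were tested and the rest did not reach 1 CPM. In Q175 against WT, 9 of the 13 were higher, with a median of 0.21, and Aldoc and Pfkm (0.68 ± 0.29, SE, adjusted p = 0.726, edgeR) had an unadjusted p under 0.05. In Q175;Tyrobp-KO against Q175, 3 of 13 were higher, with a median of -0.18. In Tyrobp-KO against WT, 8 of 13 were higher (median 0.16), Aldoc alone with an unadjusted p under 0.05. For the interaction 5 of 13 were above 0 (median -0.17), and Aldoc was at -2.44 ± 1.05 (adjusted p = 0.716, edgeR).

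Regulators of the pathway numbered 25, of which 24 were tested. Pdk4, a kinase that closes the entry of pyruvate into the citric acid cycle, had 45, 87, 53, 54 and 66 normalized counts in WT and 122, 97, 94, 338 and 139 in Q175. All Q175 samples were above all WT samples, yet the log2 fold change of 1.41 ± 0.38 (SE) had an adjusted p of 0.345 by edgeR. Pdk1, a kinase of the same family, was higher in Q175;Tyrobp-KO than in Q175 in 22 of 25 pairs (0.39 ± 0.15, adjusted p = 0.533, edgeR), and the phosphatase Pdp1, which opposes both, in 3 of 25 (-0.37 ± 0.16, the same adjusted p). Pdp1 was also among the genes with an unadjusted p under 0.05 in the interaction (-0.72 ± 0.32, adjusted p = 0.716, edgeR). Mtor, a growth kinase, was between 1239 and 1877 normalized counts in Tyrobp-KO and between 1753 and 2533 in WT (-0.53 ± 0.20, adjusted p = 0.625, edgeR). The medians of the regulators were -0.04, -0.06, 0.05 and 0.05 in Q175 against WT, Q175;Tyrobp-KO against Q175, Tyrobp-KO against WT and the interaction.

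Of the 14 sugar and lactate transporters, 6 of 14 were higher in Q175 than in WT (median -0.01), 4 of 14 in Q175;Tyrobp-KO than in Q175 (median -0.11) and 9 of 13 in Tyrobp-KO than in WT (median 0.02). For the interaction 4 of 14 were above 0 (median -0.16). Slc16a8, a lactate transporter known from the retinal pigment epithelium, had a log2 fold change of 4.44 in Q175 against WT with an adjusted p of 0.365 (edgeR), but its counts were 56 in Q175 replicate 4 and at most 8 in every other sample, and this replicate also decides its values in Q175;Tyrobp-KO against Q175 (-3.44) and in the interaction (-5.05). Slc2a12 rested on 2 samples, with 168 and 150 normalized counts in Q175 replicates 3 and 4 and at most 51 elsewhere (2.47 ± 0.88, adjusted p = 0.537, edgeR). Slc2a6, a transporter of lysosomes, was lower in Q175;Tyrobp-KO than in Q175 in all but 1 of 25 pairs (-0.45 ± 0.19, adjusted p = 0.533, edgeR).

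The pentose phosphate pathway, which branches off after the hexokinase step, had 1 of 8 genes higher in Q175 than in WT (median -0.05), 6 of 8 in Q175;Tyrobp-KO than in Q175 (median 0.09), 6 of 8 in Tyrobp-KO than in WT (median 0.19) and 5 of 8 in the interaction (median 0.04), none with an unadjusted p under 0.05. Of 18 genes of the hypoxia response outside glycolysis, 13 were higher in Q175 than in WT (median 0.17) and 3 in Q175;Tyrobp-KO than in Q175 (median -0.28). In Tyrobp-KO against WT, 9 of 17 were higher (median 0.09), and in the interaction 5 of 18 were above 0 (median -0.29). Vegfa, the vascular growth factor induced by HIF-1, had 0.58 ± 0.24 (SE, adjusted p = 0.674, edgeR) in Q175 against WT and -0.78 ± 0.33 (adjusted p = 0.533) in Q175;Tyrobp-KO against Q175. Ak4, an adenylate kinase of mitochondria, had 0.98 ± 0.42 and Adm, the peptide adrenomedullin, 1.79 ± 0.81 in Q175 against WT (edgeR adjusted p = 0.729 and 0.781), Adm at most at 31 normalized counts in any sample. Higd1a, a mitochondrial protein induced by hypoxia, was at -1.08 ± 0.46 in the interaction (adjusted p = 0.716, edgeR).

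Among 7824 protein coding genes with at least 10 CPM in every sample and outside the lists, the genes most like the members were found by the Pearson correlation of their log2 CPM with the mean of the z-scaled log2 CPM of the 10 members over 18 samples. The 10 highest were Emc10 (r = 0.895, rho = 0.893), Edf1, Chmp4b, Uck1, Ormdl3, Ak1, Chmp1a, Asna1, Apoe and Pebp1 (r = 0.827, rho = 0.835). Apoe encodes the lipid carrier apolipoprotein E, made by astrocytes and by activated microglia, and Emc10 and Asna1 take part in the insertion of proteins into the endoplasmic reticulum membrane.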

How the data were processed

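Reads of non-directional SMART-Seq libraries were mapped by the authors with STAR to the mouse genome GRCm38, and featureCounts gave the raw counts per gene that they deposited, whole numbers without normalization. The processing notes name GRCh38, the human build, and the methods refer to UCSC genes, but the 55536 identifiers all belong to GENCODE M21 (GRCm38), which supplied names, positions and exonic lengths here. By the methods a sample is 1 striatum and by the labels 2. Left out were 2 columns that no label names.

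Counts were normalized and tested with edgeR 4.0.16 in R 4.3.3 (TMM factors of 0.788 to 1.132, quasi-likelihood test at an FDR of 0.1 on the samples compared, or on all samples for the interaction). A gene was tested if any sample of the fit reached 1 CPM. The steps were first tried on simulated data. Copies were found with blastn 2.17.0 (95% identity over at least 100 bases). Alternatives were DESeq2 1.42.0, other scalings, filters and an FDR of 0.05, 1 fit over all groups, terms for sex, non-microglial markers or endothelial markers, each sample left out, and shares without length. Shares were tested with exact permutation tests in scipy 1.17.1. No library was a copy of another: the most alike pair (correlation 0.987) differed beyond sampling noise (chi-square of 14.6 for each degree of freedom). Reads without molecular identifiers are not independent molecules.

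The members and lists were chosen with earlier results of these data known. Named were all members, Tyrobp, their isozymes, up to 4 genes per list and comparison with an unadjusted p under 0.05, and the 10 genes most like the members. The ribosomal protein genes and the 3 libraries left out were chosen after the values were seen.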

Additional observations from a re-analysis of the deposited data

Results flagged for a closer look

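Hk2 in Q175;Tyrobp-KO replicate 5 was flagged because this sample lay far from the other 4 of its group. It had 2650.4 normalized counts, and the others had between 3737 and 4156, so the gap took 0.722 of the group's whole range. Of 30 such groups of 5 samples tested over the members, it was the only one flagged, and chance flags about 1 in 20. The same sample had the highest astrocyte marker sum of its group, 59742 normalized counts, and the lowest microglia marker sum, 297705. The part of these levels in its Hk2 value was not tested.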

How the results depend on the processing

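No member was called under any alternative, in any comparison, and the adjusted p of none fell below 0.276. The median log2 fold change of the members moved from its reported value by less than the spread between samples (0.314, the within-group SD of the members' median level) under every alternative but 1: with sex as a term it was -0.25 instead of 0.34 in Q175 against WT, where the only Q175 male is the low library, replicate 9. That spread is a wide limit. With the term for non-microglial markers the median in Q175 against WT lost nearly all of its size. In Q175;Tyrobp-KO against Q175 the median changed sign with that term and with the sex term, as given above. Of 840 values of single members, 58 changed sign, none of them called, and the cause was not tested. No paired analysis was possible because the groups share no replicate number. With sex as a term Aldoa was -0.0048, Gapdh -0.40, Pgk1 -0.41 and Eno1 -0.10 in Q175 against WT, Hk1 0.038, Aldoa 0.051, Gapdh 0.53, Pgk1 0.063 and Eno1 0.14 in Q175;Tyrobp-KO against Q175, and Slc2a1 0.091 and Hk1 0.0025 in the interaction. With a term for the score of non-microglial markers Hk1 was -0.18, Hk2 0.35, Pfkl 0.048, Aldoa -0.0016 and Pgk1 -0.68 in Q175 against WT, Hk1 0.25, Aldoa 0.083, Gapdh 0.46 and Eno1 0.18 in Q175;Tyrobp-KO against Q175, Hk2 0.17 and Pfkl 0.067 in Tyrobp-KO against WT, and Slc2a1 0.052 and Hk1 0.14 in the interaction. With the endothelial level as a term Ldha was 0.037 in Q175 against WT, and Hk2 0.065 and Pfkl 0.026 in Tyrobp-KO against WT. With total counts Hk1 was 0.06, Gapdh 0.094 and Eno1 0.013 in Q175;Tyrobp-KO against Q175 and Slc2a1 0.043 in the interaction, and with filterByExpr Pfkl was -0.015 in Q175;Tyrobp-KO against Q175. Without the 3 low libraries Slc2a1 was 0.0019 and the share of Ldha differed by 0.221 percentage points in Q175 against WT, and the share of Aldoa by -3.97 points in Q175;Tyrobp-KO against Q175. Leaving out each sample in turn gave log2 fold changes from -0.24 to 0.11 for Pfkl in Q175 against WT, and in Q175;Tyrobp-KO against Q175 from -0.22 to 0.17 for Hk1, -0.075 to 0.0603 for Pfkl, -0.28 to 0.19 for Gapdh and -0.29 to 0.029 for Eno1. In Tyrobp-KO against WT it gave -0.085 to 0.036 for Slc2a1, -0.33 to 0.20 for Hk2 and -0.17 to 0.18 for Pfkl, and in the interaction -0.19 to 0.015 for Slc2a1 and -0.13 to 0.25 for Pfkl. The same left the share differences between -0.631 and 2.27 points for Slc2a1, -0.639 and 7.19 for Eno1 and -0.572 and 0.545 for Ldha in Q175 against WT, between -4.92 and 5.42 for Aldoa in Q175;Tyrobp-KO against Q175, and between -4.91 and 8.83 for Pfkl and -0.528 and 0.722 for Ldha in Tyrobp-KO against WT.

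Over all genes DESeq2 called 234, 36, 168 and 2 genes in Q175 against WT, Q175;Tyrobp-KO against Q175, Tyrobp-KO against WT and the interaction, where edgeR called 0, 2, 4 and 0. With 3 to 5 samples per group, the SE of a member's log2 fold change was between 0.13 and 0.46 in the 3 comparisons of groups, and differences of that size cannot be told from none.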
